A study of Rattus norvegicus with 4 samples.

Results

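The genes described here are markers of endothelial cells, the flat cells that line every blood vessel, followed through the vessels of rat trigeminal nerve and brainstem. They were chosen by symbol, and 6 of the 7 chosen genes were found among the 32623 genes of the series, namely Cldn5 (ENSRNOG00000045811), Flt1 (ENSRNOG00000000940), Kdr (ENSRNOG00000046829), Vwf (ENSRNOG00000019689), Cdh5 (ENSRNOG00000013324) and Tek (ENSRNOG00000008587). Pecam1 is not analysed here. In the brain, endothelial cells are sealed by tight junctions and carry transporters that form the blood-brain barrier, whereas vessels of a sensory ganglion are known to be more permeable and those inside a nerve form a barrier of their own. VEGF, a growth factor for vessels, acts through the receptors encoded by Flt1 and Kdr, of which Kdr carries most of the signal and Flt1 binds the ligand tightly and limits it. Tek encodes the receptor of the angiopoietins, Cdh5 the cadherin of endothelial adherens junctions, Cldn5 the main claudin of brain endothelial tight junctions and Vwf the clotting protein stored in endothelial cells and megakaryocytes.

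Spatial transcriptomes were collected on 4 Visium capture areas, slides on which each small spot collects messenger RNA from the tissue above it and counts it as unique molecular identifiers (UMIs). The animals were adult male Sprague–Dawley rats, wild type by their labels. TN1, TN2 and TN3 each held root, ganglion and proximal branches from the side on which the trigeminal nerve root of 1 rat had been chronically compressed, a model of trigeminal neuralgia (TN). HC, the control, was a single area with tissue of 2 rats, called sham-operated in one place and the healthy side in another, so HC and TN may share animals. The areas held 1256 to 2013 spots and 23546025 to 41335930 UMIs, and the median per spot ran from 9487 UMIs in TN1 to 30808 in TN2.

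Spots were grouped by their transcriptome with the vascular genes left out of the clustering, and the groups were named from fixed marker lists. Spots of sensory neuron markers formed the ganglion region, with 202, 368, 166 and 675 spots in TN1, TN2, TN3 and HC. Oligodendrocyte markers defined the central myelin region, with 279, 124, 224 and 434 spots in the same order. The central neuron region of the brainstem was found in TN1 (426 spots) and TN2 (130 spots), and the peripheral myelin region, of Schwann cell markers, in TN1 (409 spots) and TN3 (386 spots). A connective tissue region (109 spots in TN2, 50 in TN3) and an unnamed cluster led by connective tissue and peripheral myelin markers alike (cluster 6, 346 and 474 spots) were nearly absent from TN1, with 2 spots in all, and had no spot in HC. One of the 2 clusters merged into the ganglion region had no HC spot either, and none of its 10 leading genes was on the marker list, so the ganglion of TN and HC was not made of the same clusters. A spot covers several cells, so fewer endothelial cells and less RNA per endothelial cell cannot be told apart.

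Cldn5 was the member with most UMIs and the one tied most closely to the barrier, and its promoter is shown for that reason. The 250 bases before its start site lie at chr11:95718599-95718848 of GRCr8 (RefSeq), and the sequence is that of the minus strand. The capitals mark the letters CCAAT in either strand.
Cldn5: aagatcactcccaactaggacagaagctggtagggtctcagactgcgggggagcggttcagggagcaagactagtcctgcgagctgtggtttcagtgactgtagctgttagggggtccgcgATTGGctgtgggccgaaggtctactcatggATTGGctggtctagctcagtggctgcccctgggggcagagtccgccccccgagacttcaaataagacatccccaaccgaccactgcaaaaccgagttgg
This window held 2 matches to CCAAT, as many or more being found in 9.42% of 33465 rat promoter windows of the same length, and 34% held at least 1. GGGCGG, held by 30.5% of windows on either strand, had 1 match, and GGAA, held by 93.2%, had 0.

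Spots are not replicates. The edgeR p-values of TN against HC set a difference against the spread between the TN areas. Those of the tissue comparisons set it against the variation left after area and region, pooled over all named regions (10 residual degrees of freedom). This also holds for the central neuron and peripheral myelin regions, which had 2 areas each with 20 or more spots. Most spots held at least 1 UMI of a member gene. The share of spots with none was 25.1% for TN1, 8.44% for TN2, 20.5% for TN3 and 21.5% for HC. Cldn5 was found in 60.4% of TN1 spots, 78.3% of TN2, 62.8% of TN3 and 63.7% of HC spots. TN2, the deepest area, had the highest share. With every spot thinned to 2000 UMIs, and 150 shallower spots left out (9 of TN1, 16 of TN2, 116 of TN3, 9 of HC), Cldn5 was found in 19.3%, 17.4%, 19.8% and 15.7%, and TN2 no longer stood highest. Cdh5 was found in 17.0%, 54.1%, 40.6% and 18.5% of spots in TN1, TN2, TN3 and HC. The 95% exact binomial intervals, which cover counting error only, were 51.3% to 56.8% in the highest of these areas and 15.1% to 18.9% in the lowest. After thinning the Cdh5 shares were 2.60%, 8.07%, 7.22% and 3.04%, with TN2 and TN3 still above TN1 and HC.

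Over all spots, the level of each gene was expressed as CPM, its UMIs as a share of all UMIs of the area, scaled to the same total in each area. Cldn5 stood at 113 CPM (TN1), 95.8 (TN2), 110 (TN3) and 85.8 (HC), the TN areas all above HC. Flt1 stood at 15.97, 13.2, 12.1 and 12.6 CPM, and Tek at 15.0, 18.7, 16.5 and 15.9, with HC inside the range of the TN areas for both. Kdr stood at 13.6, 15.0 and 12.4 CPM in TN1, TN2 and TN3 against 17.3 in HC, which lay above them all. Vwf stood at 15.0, 20.1, 15.2 and 19.8 CPM, TN2 and HC being close together at the top. Cdh5 stood at 15.3 CPM (TN1), 46.6 (TN2), 43.3 (TN3) and 11.3 (HC). In Cdh5, TN1 lay near HC and the other TN areas stood well above both.

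The comparison of TN with HC asked whether root compression went with a change in the vessels. No member passed the test, whether in all spots, in the ganglion region or in the central myelin region. edgeR's quasi-likelihood test called 0% of the 14902 genes tested over all spots, 0% of 12846 in the ganglion and 0% of 9102 in the central myelin. At an unadjusted p under 0.05 the shares were 8.53%, 9.15% and 3.1% of genes, and DESeq2 called 144, 118 and 4 genes, none of them a member. With 1 HC area the spread came from the TN areas alone, so a missed threshold does not show that levels were equal.

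Kdr was lower in TN ganglion than in HC ganglion by value, without passing the test. After TMM scaling it stood at 12.4 CPM in TN1, 13.5 in TN2 and 12.7 in TN3 (12.9 ± 0.581, SD, n = 3) against 19.1 in HC. The TN areas lay close together and all below HC, a log2 difference of −0.57 (SE 0.23) with an adjusted p of 0.542. Other vascular genes went both ways in the ganglion. Of the general endothelial genes listed, Rasip1, Ecscr and Arhgef15 also had all TN areas below HC. Sox17, Sox18, Sox7, Adgrl4 and Ramp2 had all of them above. The share of all genes so placed is not given here. Flt1 in the same spots stood at 11.01 ± 0.587 CPM in TN (SD, n = 3) and 11.3 in HC, a log2 difference of −0.03 (SE 0.27, adjusted p = 0.975). In central myelin, Kdr stood at 11.6, 15.3 and 7.21 CPM in TN1, TN2 and TN3 and 10.5 in HC, which lay within the TN range. The test of whether the TN to HC difference itself differed between ganglion and central myelin gave −0.71 (SE 0.42, adjusted p = 0.921) for Kdr, and called 0 of the 6 members against 0.0235% of 12766 genes (5.41% at an unadjusted p under 0.05). Vwf in the ganglion stood at 7.06, 13.0 and 6.92 CPM in TN1, TN2 and TN3 and 13.3 in HC (log2 difference −0.55, SE 0.42, adjusted p = 0.677). Tek (−0.14, SE 0.31) and Cldn5 (0.11, SE 0.18) differed by less than their errors there.

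**Figure D1:**
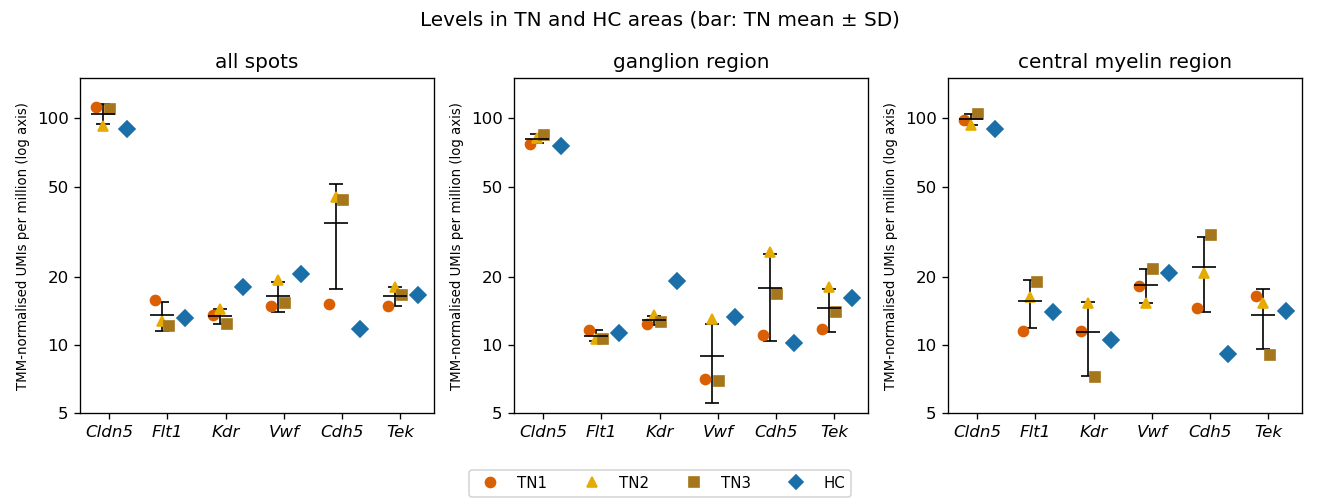
TMM-normalised CPM (log axis) of the 6 genes in TN1, TN2, TN3 and HC over all spots, in the ganglion region and in the central myelin region; the black bar is the TN mean ± SD of 3 areas. Kdr in the ganglion lay between 12.4 and 13.5 in the TN areas and at 19.1 in HC, and Cdh5 over all spots was far higher in TN2 and TN3 than in TN1 and HC.

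Cdh5, the adhesion molecule of endothelial junctions, had the largest difference by value among the 6 genes. Its log2 difference between TN and HC over all spots was 1.55 (SE 0.70, adjusted p = 0.559). Other endothelial genes went both ways over all spots. Of the general endothelial genes listed, Esam, Eng, Sox17, Sox18, Sox7, Adgrl4, Ramp2, Tm4sf1 and Cd34 had all TN areas above HC. Rasip1, Ecscr, Cyyr1 and Arhgef15 had all of them below. The share of all genes so placed is not given here. Cdh5 itself was higher than HC in 3 of 3 TN areas. In the ganglion it stood at 11.1, 25.8 and 16.7 TMM-scaled CPM in TN1, TN2 and TN3 against 10.3 in HC (log2 difference 0.81, SE 0.48, adjusted p = 0.604). In central myelin it stood at 14.6, 20.8 and 30.6 against 9.10 (1.25, SE 0.47, unadjusted p = 0.0330, adjusted p = 0.999). Without TN1, the all-spot difference became 1.90 with an adjusted p of 0.0124, in a fit with 1 residual degree of freedom that called 2171 genes. DESeq2 on all 4 areas gave an adjusted p of 0.326.

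Most Cdh5 UMIs of TN2 and TN3 lay in clusters without an HC spot. The connective tissue region and cluster 6 together held 36.2% of TN2 spots and 67.7% of its Cdh5 UMIs, and 27.3% of TN3 spots and 57.0% of its Cdh5 UMIs. The same spots held 43.1% and 33.9% of the Cldn5 UMIs. A share of spots is not a share of RNA. Connective tissue spots held a median of 46145 UMIs in TN2 and 26970.5 in TN3, against 30808 and 14480 over all spots. In the connective tissue region Cdh5 reached 140 CPM in TN2 and 106 in TN3 (123 ± 23.7, SD, n = 2), and in cluster 6 it reached 45.8 and 63.1. From highest to lowest mean, these were followed by the astrocyte region (49.6 ± 11.1, n = 2), peripheral myelin (32.1 ± 11.5, n = 2), blood and bone (29.7 ± 8.81, n = 4), central myelin (18.6 ± 9.01, n = 4), unnamed cluster 4 (18.4 ± 4.68, n = 4), ganglion (16.1 ± 7.55, n = 4) and the central neuron region (14.7 ± 1.53, n = 2). The means of the last 4 differed by less than the SD of central myelin or ganglion. The regions were not all present in the same areas. Outside the connective tissue region and cluster 6, Cdh5 stood at 15.0 CPM (TN1), 25.8 (TN2), 29.2 (TN3) and 11.3 (HC), and the log2 difference between TN and HC was 0.99 (adjusted p = 0.533). The TN areas still all lay above HC there.

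Over all spots and in the ganglion region, connective tissue markers stood in the same order of areas as Cdh5, but not in central myelin. Genes of that list, namely Dcn, Lum, Col1a1, Col3a1, Mgp, Fn1 and Pdgfra, summed to 2006 CPM (TN1), 5834 (TN2), 5648 (TN3) and 1467 (HC), with none of the 7 at 0. In the ganglion region they summed to 1097, 3374, 2551 and 1095 CPM. In central myelin they summed to 504, 1869, 1713 and 573 CPM, highest in TN2 and lowest in TN1. Cdh5 was highest there in TN3 and lowest in HC. The 10 leukocyte markers measured summed to 178, 344, 453 and 124 CPM over all spots, the 19 mural cell markers to 392, 657, 588 and 406, the 6 lymphatic markers to 65.0, 118, 120 and 71.2, and the 12 megakaryocyte markers to 17.8, 77.1, 35.0 and 8.20. All of these sums were higher in TN2 and TN3 than in TN1 and HC. The megakaryocyte sum of the TN areas was mostly Pf4, also made by macrophages, at 14.3, 70.4 and 29.2 CPM there and 3.97 in HC. The platelet glycoprotein gene Gp1ba was at 0 in TN1, TN3 and HC and had 1 UMI in TN2. Other genes of that list were present. In TN1, TN2, TN3 and HC, Itga2b had 54, 127, 98 and 78 UMIs, Gp1bb 19, 45, 13 and 58, and Treml1 0, 59, 44 and 21. The lymphatic sum was mostly Pdpn, which other cells also make, at 60.9, 109, 113 and 59.1 CPM, while Lyve1 stood at 3.19, 3.74, 4.84 and 6.34 CPM and was highest in HC, as were Prox1, Mmrn1 and Ccl21 at lower levels. The part of these cells in the Cdh5 difference was not tested. The 26 other endothelial genes of the core list, 1 of them at 0, summed to 381, 467, 445 and 355 CPM, also higher in TN2 and TN3 but by less than Cdh5. In the TN to HC comparison over all spots 0 genes of any vascular or other-cell list were called, and the list medians ran from −0.77 for the 6 lymphatic markers to 1.05 for the 7 venous genes and 1.04 for the 9 leukocyte markers, against 0.06 over all genes.

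**Figure D2:**
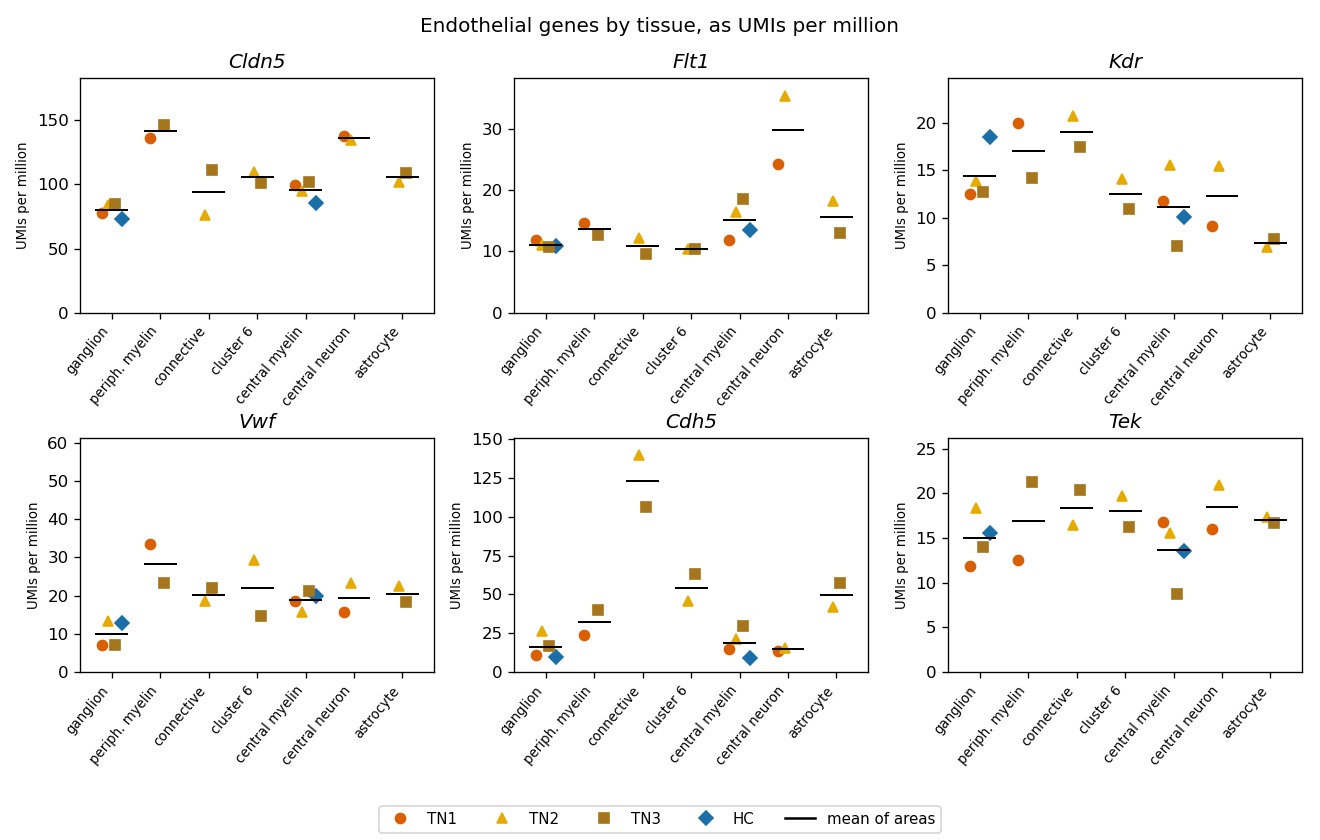
CPM of each gene (linear axes from 0) in 7 tissue regions, with 1 point per capture area of at least 20 spots and the mean of the areas as a bar. Cdh5 was highest in the connective tissue region, at 106 and 140, and Flt1 in the central neuron region, at 24.2 and 35.4.

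The tissue comparison asked how vessels of the brainstem side differ from those of the ganglion. Relative to all other RNA, 3 members were higher in central myelin than in ganglion and 4 were higher in the central neuron region, with none lower, where 24% and 16.1% of all 11774 genes tested were called higher, 32.5% and 18.5% lower, and 56.5% and 34.5% in either direction (60.9% and 42.9% at an unadjusted p under 0.05). Unless given per spot, log2 differences, fold values and calls between tissues come from counts after TMM scaling, while CPM values by region are unscaled. The direction depended on the scale. Ganglion spots held far more RNA, and counted per spot instead of as CPM, the median of all genes moved by −2.58 on the log2 scale in the first comparison and by −1.44 in the second. Per spot, all 6 members were called lower in central myelin than in ganglion. In the central neuron region Kdr and Cdh5 were called lower and the other members were not called. The medians of the 6 members per spot were −2.29 and −0.62, against −2.68 and −1.47 over all genes. Most genes were called on this scale, 11068 of 11774 in the first comparison and 9288 in the second, in either direction.

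After TMM scaling Cldn5 was 1.28 times as high in central myelin as in ganglion in the fit. It stood at 77.6, 83.9, 85.0 and 72.9 CPM in the ganglion of TN1, TN2, TN3 and HC and at 99.95, 95.2, 102 and 85.8 in their central myelin. Central myelin was the higher in every area (log2 difference 0.36, SE 0.13, adjusted p = 0.0191). The central neuron region stood higher still, at 138 and 135 CPM in TN1 and TN2 (1.03, SE 0.15, adjusted p = 1.42e-05). Per 100 spots the order turned: 340 ± 37.6 Cldn5 UMIs in the ganglion (SD, n = 4), 73.8 ± 23.3 in central myelin (n = 4) and 253 ± 98.5 in the central neuron region (n = 2), with per-spot log2 differences from ganglion of −2.25 and −0.39.

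Flt1, the receptor that binds VEGF tightly, had the largest rise of the 6 in the central neuron region. It stood at 11.8, 10.9, 10.7 and 10.9 CPM in the ganglion of TN1, TN2, TN3 and HC, a narrow range. In central myelin it stood at 11.8, 16.5, 18.4 and 13.4 CPM (log2 difference 0.50, SE 0.19, adjusted p = 0.0298), TN1 being level with its ganglion. In the central neuron region it stood at 24.2 CPM in TN1 and 35.4 in TN2, 2.92 times the ganglion level in the fit (1.55, SE 0.20, adjusted p = 3.55e-06). Per spot the central neuron difference was 0.14 and not called, and the central myelin difference was −2.07.

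Kdr, the main signalling receptor of VEGF, did not follow Flt1. It stood at 12.5, 13.9, 12.7 and 18.5 CPM in the ganglion of TN1, TN2, TN3 and HC, at 11.8, 15.6, 7.02 and 10.1 in central myelin, and at 9.17 and 15.4 in the central neuron region of TN1 and TN2. Neither difference from ganglion was called, at −0.34 (SE 0.22, adjusted p = 0.204) and −0.10 (SE 0.25, adjusted p = 0.796). Per spot both were called lower, at −2.84 and −1.52.

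Because both receptors were counted in the same spots, their ratio does not depend on the scale. It was computed after the levels of both had been seen. The ganglion held 0.941 Flt1 UMIs per Kdr UMI (TN1), 0.789 (TN2), 0.841 (TN3) and 0.590 (HC), below 1 in each. Central myelin held 1, 1.06, 2.62 and 1.33 in the same order. The ratio was higher in central myelin in 4 of 4 areas, by 0.83 ± 0.70 on the log2 scale (SD, n = 4; exact permutation test of the signs, two-sided p = 0.125, the smallest that 4 pairs allow). The TN3 value rests on 21 Flt1 and 8 Kdr UMIs. Other ratios rest on few spots too. Kdr was found in 18, 13 and 8 central myelin spots of TN1, TN2 and TN3. It was found in 7 astrocyte spots of TN2, and in 9 and 6 blood and bone spots of TN1 and TN2. The central neuron region held 2.64 in TN1 and 2.29 in TN2 and the astrocyte region 2.62 in TN2 and 1.68 in TN3, all above the ganglion of every area. Peripheral myelin (0.729 in TN1 and 0.887 in TN3) and connective tissue (0.585 in TN2 and 0.542 in TN3) lay below 1, like the ganglion. A high ratio was not confined to the central regions, since the blood and bone region held 2.33 in TN1, 1.33 in TN3 and 1.72 in HC, with 0.875 in TN2.

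**Figure D3:**
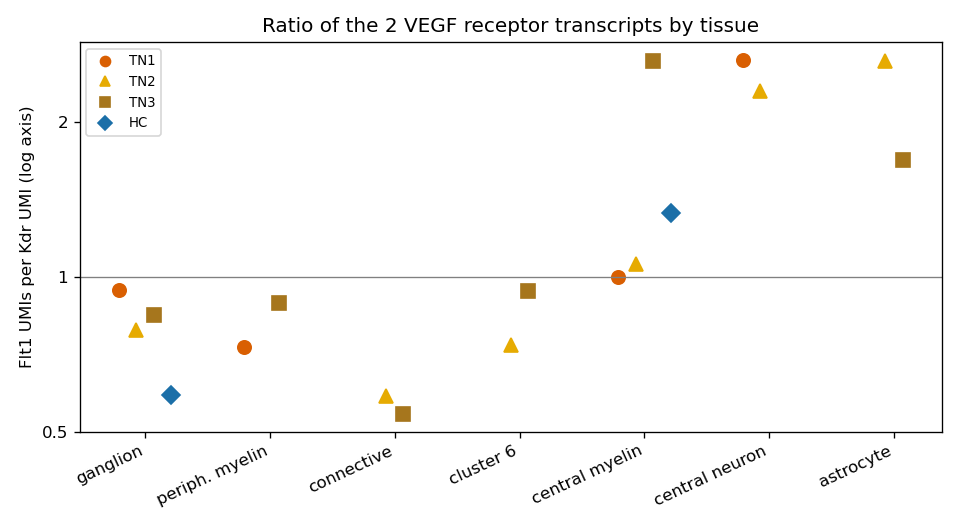
Flt1 UMIs per Kdr UMI (log axis, line at 1) in 7 tissue regions, with 1 point per capture area of at least 20 spots. The ganglion, peripheral myelin, connective tissue region and cluster 6 lay below 1 in every area, and the central neuron and astrocyte regions above 1. The blood and bone region, not plotted, ran from 0.875 to 2.33.

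On the CPM scale Vwf had the largest difference of the 6 between central myelin and ganglion, and per spot the smallest. It stood at 7.10, 13.3, 6.94 and 12.9 CPM in the ganglion of TN1, TN2, TN3 and HC and at 18.6, 15.6, 21.1 and 20 in central myelin. Central myelin was the higher in every area, by least in TN2. The share of all genes so placed is not given here. In the edgeR fit, after TMM scaling, Vwf was 1.96 times as high (log2 difference 0.97, SE 0.23, adjusted p = 0.000999). In the central neuron region it was 2.32 times as high in that fit (1.22, SE 0.25, adjusted p = 0.000656), at 15.7 CPM in TN1 and 23.1 in TN2. Per spot these differences were −1.54 and −0.12. Megakaryocyte markers, which mark the other cells that make Vwf, summed to 7.35 to 53.5 CPM in the ganglion and 7.38 to 47.6 in central myelin, with 5 to 8 and 6 to 10 of the 12 at 0, and their part was not tested.

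Tek and Cdh5 were not called in central myelin on the CPM scale, whereas per spot they differed from ganglion by −2.55 and −2.33. Tek stood at 14.9 ± 2.74 CPM in ganglion and 13.7 ± 3.51 in central myelin (SD, n = 4 each), a log2 difference of −0.01 (SE 0.19, adjusted p = 0.979). In the central neuron region Tek stood at 16.05 CPM in TN1 and 20.9 in TN2 and was called higher (0.56, SE 0.20, adjusted p = 0.0384), a call lost without TN1, without TN2 or without TN3 (0.51 to 0.62, adjusted p from 0.0932 to 0.198), and also with no filter on low counts, 8 or 12 clusters, log-normalised clustering or no area block (0.42 to 0.48, adjusted p from 0.0683 to 0.158). Cdh5 differed from ganglion by 0.24 (SE 0.20, adjusted p = 0.320) in central myelin and by 0.05 (SE 0.23, adjusted p = 0.894) in the central neuron region. The Cldn5 call in central myelin was lost without TN1 (0.33, adjusted p = 0.0860) or TN3 (0.31, adjusted p = 0.115), and that of Flt1 without TN2 (0.45, adjusted p = 0.0756), TN3 (0.35, adjusted p = 0.226) or HC (0.61, adjusted p = 0.0576), while that of Vwf held without any of the 4 areas (0.77 to 1.19, adjusted p at most 0.00854).

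**Figure D4:**
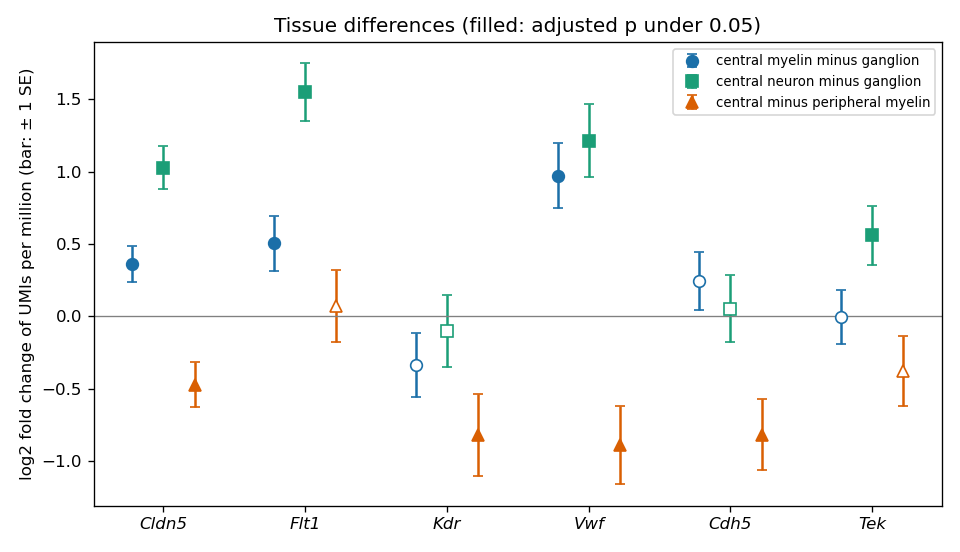
Log2 fold change of TMM-normalised CPM (± 1 SE) of the 6 genes between tissue regions, filled where the adjusted p was under 0.05. On this scale Cldn5, Flt1 and Vwf lay above 0 in both comparisons with ganglion (per spot, below 0 except Flt1 in the central neuron region), Kdr at −0.34 and −0.10, and 5 of the 6 lay below 0 between central and peripheral myelin.

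**Figure D5:**
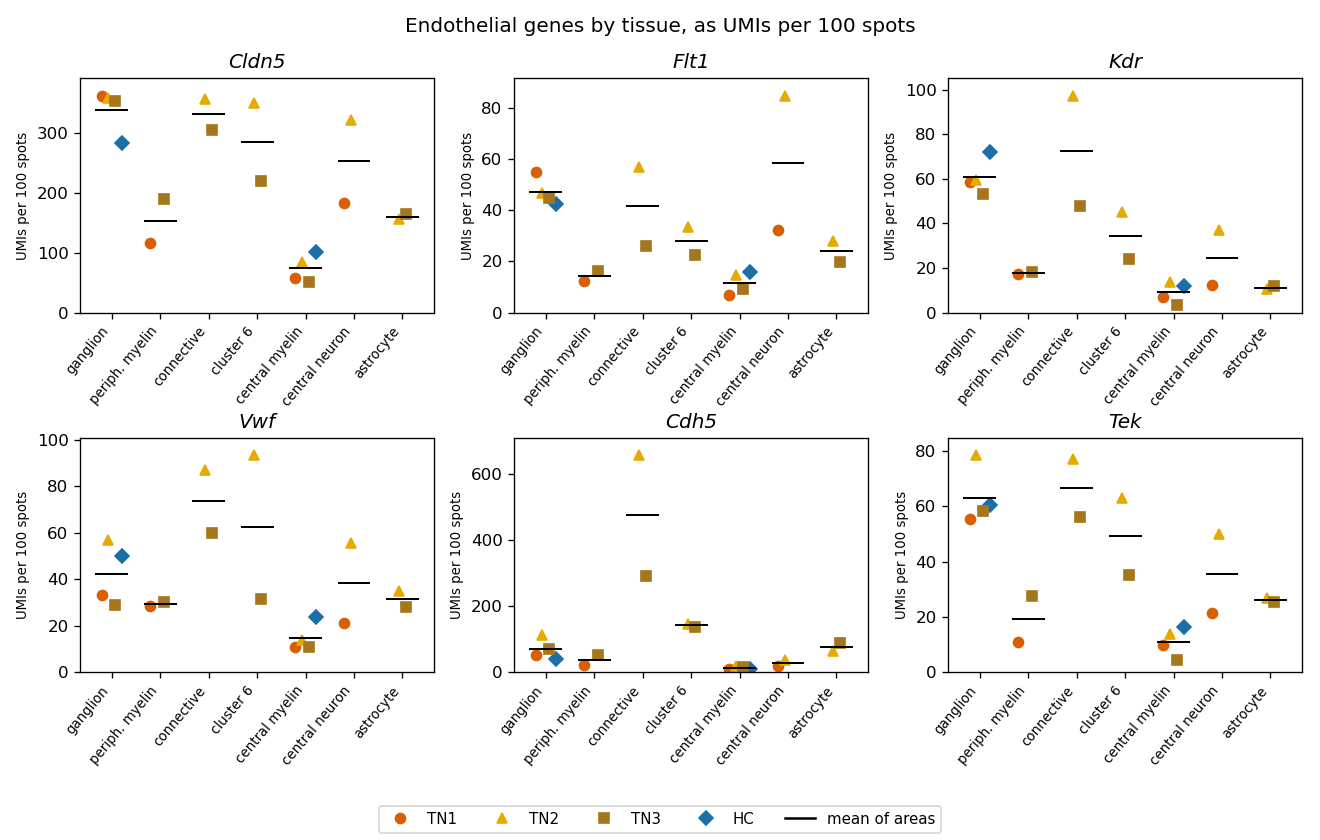
UMIs of each gene per 100 spots (linear axes from 0) in the same 7 tissue regions, with 1 point per capture area of at least 20 spots and the mean of the areas as a bar. The order differs from that of CPM: Cldn5 was lowest in central myelin, at 73.8 on average, and highest in the ganglion, at 340.

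Relative to all RNA, but not per spot, more barrier genes were higher than lower on the central side. Of 21 barrier genes tested, 13 were called higher and 4 lower in central myelin than in ganglion, where 24% and 32.5% of all genes were. In the central neuron region 13 were higher and 0 lower, where 16.1% and 18.5% of all genes were. The median log2 differences of the list were 0.70 and 0.78, against −0.10 and −0.03 over all genes. The glucose transporter gene Slc2a1 was higher by 1.16 and 0.78, and Slc38a3, an amino acid transporter gene that astrocytes also express, by 3.80 (SE 0.15) and 4.05 (SE 0.17). Slc38a3 was also called higher per spot, by 1.21 and 2.65. The largest falls in central myelin were those of Cgnl1, a junction adaptor (−1.32), and Abcg2, an efflux pump (−1.11). Per spot, 2 barrier genes were called higher and 16 lower in central myelin, and 3 higher and 8 lower in the central neuron region. The barrier list medians per spot were −1.90 and −0.62, against −2.68 and −1.47 over all genes. On that scale 11068 and then 9288 of all 11774 genes were called in either direction.

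Of 23 general endothelial genes tested, 2 were called higher and 8 lower in central myelin than in ganglion, where 24% of all genes were higher and 32.5% lower, with Emcn at −1.06 and Ecscr at −1.47, both surface proteins of endothelium. In the central neuron region 7 were called higher and 2 lower, where 16.1% and 18.5% of all genes were. Per spot the counts were 0 higher and 21 lower, and then 1 and 13, with list medians of −2.72 and −1.03, against −2.68 and −1.47 over all genes. On that scale 11068 and then 9288 of all 11774 genes were called in either direction. S1pr1, a lipid receptor that astrocytes also express, was higher in both (3.11, SE 0.21, and 3.71, SE 0.23), as was Sox18, a vascular transcription factor, in the central neuron region (2.14). The fenestrated vessel list had 2 higher and 3 lower of 6 in each comparison. Its largest change in central myelin was that of Fabp4, a fatty acid binding protein gene (3.51, SE 0.38), which was also called higher per spot (0.89). Plvap, the diaphragm protein of permeable capillaries, was lower in central myelin (−1.16, SE 0.46) and higher in the central neuron region (2.04, SE 0.39), and Esm1 was lower in both (−2.30 and −2.41).

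The list of VEGF and angiopoietin genes also held apelin genes and Notch1, Notch4, Pdgfb, Hif1a and Epas1. Of its 17 genes tested, 4 were called higher, 4 lower and 9 not called in each comparison. Among all genes, 24% and 32.5% were called higher and lower in central myelin, and 16.1% and 18.5% in the central neuron region. Apln, the ligand of the apelin receptor, was higher by 2.46 (SE 0.26) in central myelin and by 3.19 (SE 0.28) in the central neuron region, and its receptor gene Aplnr by 2.30 in central myelin. Angpt2, a Tek ligand, was lower in both (−1.30, SE 0.32, and −1.59, SE 0.37). Vegfa was lower in central myelin (−0.85) and Nrp2, a VEGF co-receptor, was lower in the central neuron region (−1.11). Per spot 0 of these 17 genes were called higher in central myelin and 1, Apln (1.75), in the central neuron region. On that scale 11068 and then 9288 of all 11774 genes were called in either direction.

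Of the remaining lists, mural cell genes had 4 higher and 3 lower of 18 in central myelin and 6 higher and 2 lower in the central neuron region, with Atp13a5, a pericyte gene of brain, higher in both (2.48, SE 0.70, and 4.22, SE 0.54) and Mcam lower in both (−2.30, SE 0.11, and −2.11, SE 0.14). Of all genes, 24% were called higher and 32.5% lower in central myelin, and 16.1% and 18.5% in the central neuron region. Atp13a5 was sparse, at a mean of 1.57 CPM in central myelin and 0.22 in ganglion (n = 4 each). Counted per spot, its central myelin difference was 0.24 and not called. Per spot, 0 mural genes were higher and 16 lower, and then 1 and 9. The mural list medians per spot were −2.44 and −1.11, against −2.68 and −1.47 over all genes. On that scale 11068 and 9288 of all 11774 genes were called in either direction. Arterial genes had 1 higher and 3 lower of 7, and then 1 and 1. Those called in both comparisons were Unc5b (3.50 and 2.57), also known in oligodendrocytes and neurons, and Stmn2 (−2.93 and −2.17), a neuronal gene. Venous genes had 2 higher and 1 lower of 5, and then 2 and 0, led by Slc38a5 (1.90 and 2.81). Activation genes had 2 higher and 1 lower of 5, and then 1 and 3, with Vcam1 higher (1.47 and 1.49) and Cd74, an antigen presentation gene of immune cells, lower (−0.73 and −1.92). Leukocyte markers had 4 higher and 0 lower of 8, and then 0 and 1, with Csf1r, which microglia express, higher in central myelin (2.11). Lymphatic markers had 0 higher and 1 lower of 3 in each comparison, and megakaryocyte markers 0 of 3 called in both. Per spot, the arterial, venous, activation, fenestrated and leukocyte lists each had 0 or 1 gene called higher in either comparison.

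Central and peripheral myelin were compared to set vessels of the brainstem side beside those of the nerve. Cldn5, Kdr, Vwf and Cdh5 were called lower in central than in peripheral myelin, 4 of 6 members lower where 14.3% of genes were, and 0 higher where 13.9% were (28.3% in either direction, 37.3% at an unadjusted p under 0.05). Cldn5 stood at 136 CPM in TN1 and 146 in TN3 peripheral myelin against 86 to 102 in central myelin (log2 difference −0.47, SE 0.16, adjusted p = 0.0277), Kdr at 19.97 and 14.2 (−0.82, SE 0.28, adjusted p = 0.0326), Vwf at 33.4 and 23.2 (−0.89, SE 0.27, adjusted p = 0.0170) and Cdh5 at 24.0 and 40.2 (−0.82, SE 0.24, adjusted p = 0.0148). Flt1 differed by 0.07 (SE 0.25) and Tek by −0.38 (SE 0.24, adjusted p = 0.274). These 4 calls rest on few areas: without TN1, or without HC, 0 members were called, without TN3 2 were, and without the area as a block 0 were. Connective tissue markers summed to 7725 and 5934 CPM in peripheral myelin and 504 to 1869 in central myelin, and their part was not tested.

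Among the other lists, venous genes were 0 higher and 3 lower of 5 in central myelin, with Nr2f2, a vein-determining transcription factor, at −2.22 and Ephb4 at −1.72. Mural cell genes were 0 higher and 6 lower of 18, endothelial core genes 1 and 7 of 23, barrier genes 4 and 4 of 21, fenestrated genes 1 and 3 of 6, VEGF and angiopoietin genes 2 and 1 of 17, lymphatic markers 0 and 2 of 3, megakaryocyte markers 0 and 1 of 3, leukocyte markers 2 and 0 of 8, arterial genes 1 and 0 of 7 and activation genes 0 and 1 of 5. Of all genes, 13.9% were called higher and 14.3% lower in this comparison. Itm2a, a barrier list gene, differed by −2.34 on the log2 scale and Ecscr by −3.84. Counted per spot the median of all genes moved by −0.71, and the same 4 members were called lower. On that scale the median log2 difference was −1.31 for the 6 members and −0.73 for all genes. The share of all genes called lower per spot is not given here.

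Of the UMIs of the 6 genes, Cldn5 held the largest share in every region and area with 20 or more spots except the connective tissue region of TN2. Transcripts were captured by their tails, so a share is not a level per length. Cldn5 gave 50.3% to 58.8% of the UMIs of the 6 genes in the ganglion, 53.1% to 57.5% in central myelin, 55.0% and 63.7% in the central neuron region and 56.6% and 56.8% in peripheral myelin. In the connective tissue region it gave 26.8% in TN2 and 38.8% in TN3, where Cdh5 gave 49.3% and 37.1%. Kdr gave 8.31% to 13.1% in the ganglion, highest in HC, and 3.76% to 8.67% in central myelin.

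Across spots the genes were only weakly related. The log-normalised level of Cldn5 had a mean Pearson correlation of 0.27 over the 4 areas with the sum of the other members, the highest of the 6, and Kdr one of 0.12, the lowest. After thinning of spots to 2000 UMIs this order was not kept. The means then ran from 0.015 (Tek) to 0.047 (Flt1 and Cldn5), with Kdr at 0.020. The genes most like the summed members, of 7829 compared, were Slco1a4 (0.30), a transporter gene of brain endothelium, and Igfbp7 (0.27), Adgrf5 (0.26), Srgn (0.25), Esam (0.25, an endothelial adhesion molecule), Itm2a (0.25), Tm4sf1 (0.25), Slc2a1 (0.23), Id1 (0.23) and Clec2g (0.21). The points share spot depth and tissue, and with spots thinned to 2000 UMIs 2 of these 10 genes stayed among the 10 most alike. Only the 2357 genes then found in at least 10% of spots of every area were compared, so rarer genes could not stay.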

How the data were processed

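The deposited values are raw UMI counts of tissue-covered spots, made by the authors in Space Ranger 1.2.0 (file header; STAR is named in the labels) without normalization. The genome build is not given in the sources used here. Each barcode suffix gives the capture area; areas share barcodes by slide design (52 in all 4).

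For clustering, the 16088 genes seen in 10 or more spots were normalised by SCTransform (Seurat 5.3.0 with sctransform 0.4.2), and its top 3000 variable genes, less 62 vascular ones, gave 30 principal components and 10 K-means clusters (50 starts), named from marker lists where the leading list exceeded the next by at least 0.25. UMIs were summed per area, or per region and area with 20 or more spots, and tested with edgeR 4.0.16 (quasi-likelihood, TMM, filterByExpr, Benjamini-Hochberg over all genes, threshold 0.05, R 4.3.3). Tissue comparisons shared 1 fit of all named regions with area as a block, since regions of an area come from the same animals; SE is the log2 difference over the root of F. DESeq2 1.42.0, other scalings, filters, clusterings and left-out areas were alternatives; per-spot scaling, connective tissue exclusion and the split of the ganglion clusters were added after seeing the data. Spots were not used as replicates; doublets do not apply to spots. The fits were also run on simulated counts with known changes. The simulated spread came from the fits themselves, so this check cannot show how well a single HC area stands for its group.

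Members and lists were chosen with earlier results of these data known. By the rule, named genes were the members and, per list, up to 2 largest called rises and falls. Outside the rule, Slc2a1 and the endothelial, megakaryocyte and lymphatic genes named in the TN to HC comparison, members aside, were named after their values were seen. One result that the rule would name is not reported here. Gene sets were not tested. Promoters of 3 members were in the RefSeq table, of which 1 lay outside its gene's own span and was printed. Where intervals are not given, shares carry counting error only.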

Additional observations from a re-analysis of the deposited data

How the results depend on the processing

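Of the counts of called genes recomputed under the alternatives, 132 stayed within 1.5 times the first value and 34 did not; of single values, 1356 kept direction and call, 116 lost the call, 4 gained it, 28 shares moved and 51 changed sign, mostly values near 0. Where a value changed, the cause was not tested.

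For TN against HC over all spots, DESeq2 called 144 genes and per-spot scaling 14. In the ganglion DESeq2 called 118, no filter on low counts 20, clustering of log-normalised counts 5 and cluster 2 alone 6. In central myelin DESeq2 called 4, no filter 1 and per-spot scaling 4. The difference between the tissues called 88 genes with no filter and 23 with log-normalised clustering. Leaving out 1 TN area at a time gave 0 to 2171 genes (0 to 1 member), 0 to 933, 0 to 69 and 4 to 87 in these comparisons. HC could not be left out there. No paired analysis was possible because HC is a single area that no label ties to a TN area.

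Per-spot scaling called 11068 of 11774 genes and 6 members between central myelin and ganglion. Between central neuron and ganglion it called 9288 of 11774 genes and 2 members. The median of all genes moved by 0.10 in TN against HC over all spots, 0.23 in the ganglion and −0.81 in central myelin. Signs that changed per spot were those of Cldn5 (−2.25), Flt1 (−2.07), Vwf (−1.54) and Cdh5 (−2.33) in central myelin against ganglion; Cldn5 (−0.39), Vwf (−0.12), Cdh5 (−1.37) and Tek (−0.86) in central neuron against ganglion; Flt1 (−0.59) in central against peripheral myelin; and, for TN against HC, Tek (0.14) over all spots, Flt1 (0.20) and Tek (0.092) in the ganglion, and Cldn5 (−0.67), Flt1 (−0.67) and Kdr (−0.64) in central myelin.

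Members called in central myelin against ganglion fell to 1 with no filter and to 1 with 8 clusters, and were 1 to 2 with 1 area left out. Against peripheral myelin they were 2 with 8 clusters, 2 with 12 clusters and 0 to 4 with 1 area left out (2079 to 3276 genes). Tek in central neuron against ganglion was no longer called with no filter (0.48), 8 clusters (0.43), 12 clusters (0.42), log-normalised clustering (0.47) or no area block (0.47). Without the area block (no replicate block), 2, 3 and 0 members were called in the 3 tissue comparisons.

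Other changes of sign were as follows. With 8 clusters, they were Cdh5 in central neuron against ganglion (−0.011), Flt1 in TN against HC ganglion (0.015), and Cldn5 (0.065) and Tek (0.038) in the difference between tissues. With 12 clusters, they were Flt1 in TN against HC ganglion (0.013), Vwf (0.014) and Tek (0.14) in TN against HC central myelin, and Tek in central myelin against ganglion (0.13). With no filter, they were Cdh5 in central neuron against ganglion (−0.026) and Cldn5 in the difference between tissues (0.069). With log-normalised clustering, Cldn5 in TN against HC was −0.049 in ganglion and −0.017 in central myelin, and with cluster 2 alone −0.13 in ganglion. Tek in central myelin against ganglion was 0.089 with DESeq2, 0.09 with its size factors and 0.0036 with vascular genes kept in the clustering. Tek in TN against HC over all spots was 0.058 without blood and bone and 0.0067 without connective tissue and cluster 6.

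With 1 area left out, values that crossed 0 were Cdh5 (−0.022 to 0.44) and Tek (−0.20 to 0.092) in central myelin against ganglion, Cdh5 (−0.34 to 0.47) and Kdr (−0.46 to 0.18) in central neuron against ganglion, Flt1 in central against peripheral myelin (−0.21 to 0.32), Tek in the difference between tissues (−0.36 to 0.14), and, for TN against HC, Flt1 (−0.089 to 0.13) and Tek (−0.061 to 0.058) over all spots, Flt1 in ganglion (−0.084 to 0.018), and Flt1 (−0.028 to 0.34), Kdr (−0.11 to 0.34) and Tek (−0.21 to 0.17) in central myelin. Depth limits the smaller sums: Kdr had 8 UMIs in central myelin of TN3.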
